A study of Mus musculus with 57 samples.

Results

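The data described here are the histone marks at the genes of the neurotrophins and their receptors: the ligands Bdnf, Ntf3 and Ntf5, the Trk receptor genes Ntrk2 and Ntrk3, and the co-receptor genes Ngfr and Sort1. These 7 genes, chosen by name, were taken from 26089 curated RefSeq genes. They have 17 of 30330 annotated transcription start sites (TSSs) when starts within 200 bp are joined, and 9 of the 17 belong to Bdnf. ChIP-seq, which sequences the DNA bound to immunoprecipitated histones, gave maps of H3K4me3, H3K27ac and H3K27me3 in brain cortex and in gastrocnemius, a calf muscle, of PSAPP mice aged 13 months. PSAPP mice carry a mutant human presenilin gene and a mutant chimeric mouse/human App gene, and all animals carried both, so the comparison of tissues has no animal without the transgenes. Each mark had 9 cortex and 10 gastrocnemius libraries, 57 in all, from 10 animals of both sexes, and 9 of the animals gave both tissues. The mice were fed a fixed daily amount of a modified AIN-93 diet and housed singly. The question was at which promoters the marks differed between the tissues, with the Bdnf promoters taken one by one.

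Neurotrophins are secreted growth factors that keep neurons alive and shape their synapses. Bdnf and the product of Ntf5 bind the receptor TrkB, made from Ntrk2, while the product of Ntf3 mainly binds TrkC, made from Ntrk3. Ngfr encodes the p75 receptor, which binds all neurotrophins, and Sort1 encodes sortilin, which binds their uncleaved precursors. Skeletal muscle is a target of motor and sensory neurons and makes neurotrophins of its own. H3K4me3 marks promoters that are active or ready for use, H3K27ac marks active promoters and enhancers, and H3K27me3 is laid down by Polycomb at repressed genes.

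Values below are RPM, the reads of peaks falling within 1 kb of a TSS per 1000000 reads in the library's autosomal peaks, as mean ± SD with n = 9 cortex and n = 10 gastrocnemius libraries. Reads were spread evenly along each peak, so windows wholly under one peak have the same value. A window that the peak covers only in part holds fewer of its reads. Under one H3K4me3 peak, cortex replicate 1 had 12.9 RPM at Bdnf promoter 4 and 24.9 RPM at promoter 6. A library without a peak at a TSS is listed at 0 RPM, which says only that no peak was called there. The reads in the peaks of a library ran from 9.16 to 19 M for H3K4me3, from 3.94 to 27.3 M for H3K27ac and from 2.99 to 18.2 M for H3K27me3, where M stands for 1000000. H3K27ac cortex replicate 9 and H3K27me3 gastrocnemius replicate 4 were the shallowest, and H3K27me3 gastrocnemius replicate 5 was the deepest and had the most genome under peaks. The deposited names of 2 cortex and 4 gastrocnemius libraries of each mark carry a run number, and a call that was lost in the fit on the other libraries is given with that value. A block needs both tissues, so the fit with the animal as a block leaves out gastrocnemius replicate 5 and the fit with the label number as a block leaves out gastrocnemius replicate 10. The tissue labels were checked by H3K4me3 at marker genes. The sum over 6 neuron genes was 124 to 160 RPM in the cortex and 12.2 to 19.5 RPM in the gastrocnemius, where Camk2a, Snap25 and Gad1 had no peak in any library and Slc17a7, Neurod2 and Syt1 had one in all. The sum over 7 muscle fibre genes was 55.2 to 92.1 and 123 to 168 RPM. Ckm, Myh4, Ttn and Tnnt3 had no peak in any cortex library and Acta1 in 1, while Mylpf and Actn3 had one in all and were called higher in the cortex (42.4 ± 5.92 and 25 ± 2.94 RPM, 36.0 ± 6.50 and 27.2 ± 5.13 RPM, edgeR adjusted p = 2.3e-07 and 0.00934). The satellite cell genes Pax7 and Myf5 had no peak in the cortex and summed to 12.6 to 19.9 RPM in the gastrocnemius. The sums were higher in the cortex for markers of astrocytes (56.3 to 78.4 and 34.3 to 55.2 RPM), oligodendrocytes (46.4 to 69.9 and 15.3 to 24.9 RPM) and microglia (8.42 to 19.4 and 0 to 6.20 RPM), and in the gastrocnemius for those of endothelium (33.4 to 43.9 and 54.9 to 87.9 RPM) and fibroblasts (19.6 to 29.0 and 35.0 to 52.0 RPM), without overlap between the tissues. The astrocyte gene Aldh1l1 went the other way (8.74 ± 1.28 and 15.8 ± 3.96 RPM, edgeR adjusted p = 2.3e-05). Both tissues are mixtures of cells, so a mark in fewer cells cannot be told apart from less of the mark in each cell, and marks called at one promoter may lie in different cells.

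Of the TSSs tested on autosomes, 59.0% had more H3K4me3 in the cortex and 16.9% more in the gastrocnemius at an FDR under 0.1 (edgeR's quasi-likelihood test with Benjamini-Hochberg adjustment over all TSSs). The member TSSs gave 8 and 3 of 15 tested. The split depended on the scaling, because the median TSS was 0.34 higher in the cortex on the log2 scale for H3K4me3 and 0.31 higher for H3K27ac. With TMM factors, which bring these medians to 0.05 for both marks, 33.2% of all TSSs were higher in the cortex and 27.8% in the gastrocnemius for H3K4me3, against 7 and 7 of the 15 members. Differences of the members under about 0.34 are therefore no larger than the shift of the typical promoter. For H3K27ac, 10 member TSSs of 15 were higher in the cortex and 3 in the gastrocnemius (all TSSs, 50.2% and 13.5%). With TMM factors 8 and 3 members were, against 32.4% and 25.4%. With whole peaks in place of the part within 1 kb, the H3K4me3 calls were nearly even, 7473 and 7562 of 19314 TSSs (members 8 and 3). For H3K27ac they turned to the gastrocnemius, 6930 and 9085 of 21414 TSSs (members 11 and 3). For H3K27me3, 3 member TSSs of 14 were higher in the cortex and 2 in the gastrocnemius (all TSSs, 19.4% and 26.3%; with TMM factors also 3 and 2, against 22.3% and 28.4%).

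Large differences were counted separately. At least 2-fold H3K4me3 calls were made at 6 of 15 member TSSs in the cortex direction and 3 in the gastrocnemius direction, against 15.8% and 9.68% of all TSSs. For H3K27ac these were 6 and 3 of 15, against 16.9% and 7.44%. These folds count uncalled libraries as 0. With such libraries set at the lowest peak density, the 2-fold H3K27ac calls over all 21414 TSSs were 2782 and 824 in place of 3616 and 1593. The libraries of the tissues did not overlap at 6 member TSSs higher in the cortex and 3 higher in the gastrocnemius for H3K4me3 (all TSSs, 18.7% and 7.13%), at 7 and 3 for H3K27ac (15.5% and 4.64%) and at 1 and 0 for H3K27me3 (4.66% and 5.06%). Neighbouring Bdnf promoters share peaks, so these counts are not counts of independent sites.

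The Bdnf gene lies on chromosome 2, forward strand, and its 9 RefSeq starts are numbered here in the order of transcription. They fall into a first group at positions 109674700, 109675897 and 109677032 (promoters 1 to 3), a second group at 109692436, 109693027, 109693563 and 109694409 (promoters 4 to 7), and single starts at 109709383 (promoter 8) and 109722921 (promoter 9), on mm10. Promoters 1 to 8 lie before 5' exons that are spliced to the shared exon with the coding sequence, and promoter 9 starts a longer form of that shared exon. The 250 bases upstream of promoters 1, 4, 6, 8 and 9 are shown because they stand for a start marked differently in the tissues, a start marked in both, the start with the most H3K4me3 and the starts without any mark. They are RefSeq sequences of GRCm38.p6, the assembly known as mm10, at chr2:109674450-109674699, chr2:109692186-109692435, chr2:109693313-109693562, chr2:109709133-109709382 and chr2:109722671-109722920, and capitals mark CpG dinucleotides.
Bdnf promoter 1: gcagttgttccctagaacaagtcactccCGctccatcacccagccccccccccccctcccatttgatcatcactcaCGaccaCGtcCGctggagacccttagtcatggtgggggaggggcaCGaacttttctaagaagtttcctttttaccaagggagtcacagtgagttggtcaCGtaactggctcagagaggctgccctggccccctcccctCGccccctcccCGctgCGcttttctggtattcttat
Bdnf promoter 4: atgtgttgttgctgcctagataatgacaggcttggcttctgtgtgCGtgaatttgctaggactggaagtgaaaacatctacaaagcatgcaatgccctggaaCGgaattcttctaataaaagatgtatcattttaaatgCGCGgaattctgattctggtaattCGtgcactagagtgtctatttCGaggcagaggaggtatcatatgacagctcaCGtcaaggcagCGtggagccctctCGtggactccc
Bdnf promoter 6: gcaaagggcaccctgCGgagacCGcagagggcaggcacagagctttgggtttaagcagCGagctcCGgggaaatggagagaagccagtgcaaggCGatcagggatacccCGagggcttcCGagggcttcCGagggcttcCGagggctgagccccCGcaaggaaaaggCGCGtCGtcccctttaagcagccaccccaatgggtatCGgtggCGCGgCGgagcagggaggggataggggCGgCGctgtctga
Bdnf promoter 8: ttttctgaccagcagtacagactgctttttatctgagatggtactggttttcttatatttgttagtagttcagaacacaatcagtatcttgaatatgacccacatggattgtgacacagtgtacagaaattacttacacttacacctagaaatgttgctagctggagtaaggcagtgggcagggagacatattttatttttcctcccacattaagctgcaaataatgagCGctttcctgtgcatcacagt
Bdnf promoter 9: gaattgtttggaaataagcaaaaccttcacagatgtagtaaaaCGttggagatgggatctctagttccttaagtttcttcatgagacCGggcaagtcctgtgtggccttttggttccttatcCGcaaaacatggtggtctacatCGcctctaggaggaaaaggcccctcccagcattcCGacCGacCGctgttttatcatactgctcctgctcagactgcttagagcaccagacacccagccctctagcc

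The stretches held 9, 9, 19, 1 and 7 CpG in this order. Within 1 kb on either side of each start, the CpG count was 59 to 89 at promoters 1 to 3, 54 to 105 at promoters 4 to 7, 13 at promoter 8 and 46 at promoter 9, against a median of 55 over all TSSs. In the 300 bases from 250 before to 50 after the start, the letters TGACG, part of the cAMP response element that Creb1 binds, were found only at promoter 4 among the 17 member promoters, on the opposite strand, so that the printed sequence reads CGTCA from 35 bases before the start, and in 22.7% of all promoters. The full element TGACGTCA was in none of the 17 and in 2.18% of all. The E-box CACGTG was found at Bdnf promoter 2 and Ntf3 promoter 1 (7.58% of all), the TATAAA of a TATA box on the opposite strand at Bdnf promoter 2, from 246 bases before the start (12.5% of all), and the wider E-box CANNTG in 13 of 17 (69.9% of all). Both strands were searched. TGACG lies within TGACGTCA and CACGTG within CANNTG. A match is a description of the letters and not a binding site.

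At Bdnf promoters 1 to 3 the cortex had more H3K4me3 than the gastrocnemius and was the tissue with H3K27ac. The cortex carried 1 H3K4me3 peak over all 3 starts, with a median width of 6 kb, and the gastrocnemius had separate small peaks of median width 1.4 to 1.8 kb. H3K4me3 in the cortex was 19.8 ± 4.56 RPM at each of the 3 starts, from 13.8 over a median of 21.1 to 25.6 RPM. In the gastrocnemius it ran from 0 over 4.95 to 7.22 RPM at promoter 1, with a peak in 9 of 10 libraries, from 0 over 0 to 4.47 RPM at promoter 2, with a peak in 3, and from 0 over 2.56 to 3.73 RPM at promoter 3, with a peak in 8. Every cortex library was above every gastrocnemius library at these starts. The log2 difference was 2.12 ± 0.35 (SE) at promoter 1, 5.27 ± 0.77 at promoter 2 and 3.12 ± 0.42 at promoter 3 (edgeR adjusted p = 2.1e-05, 5.0e-06 and 1.9e-06). At promoter 2 the size was set by the 7 uncalled libraries counted as 0, and it was 4.29 with DESeq2 and 6.78 with the animal as a block.

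H3K27ac at promoters 1 to 3 was called in 9 of 9 cortex libraries and in 0 of 10 gastrocnemius libraries. The cortex values were 5.90 ± 2.12, 6.04 ± 2.17 and 6.74 ± 1.34 RPM. At promoter 1 they ran from 2.89 over 6.07 to 9.52 RPM. The number of libraries with a peak differed by Fisher's exact test (adjusted p = 0.000169 at each start, two-sided). No fold is given, since uncalled libraries hold no value. A peak in every cortex library and no gastrocnemius library was seen at 4 of 15 member TSSs and 4.81% of all TSSs, and the reverse at 1 of 15 and 1.60%. By Fisher's test, 4 of 15 member TSSs had H3K27ac called more often in the cortex and 1 in the gastrocnemius, against 10% and 4.50% of all TSSs.

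H3K27me3 covered the same starts in both tissues. All 9 cortex and all 10 gastrocnemius libraries had a peak at promoters 1 to 3, with a median width of 7.6 kb in the cortex and 9.3 kb in the gastrocnemius. At promoter 1 the cortex libraries ran from 4.11 over 10.3 to 13.6 RPM and the gastrocnemius libraries from 5.04 over 9.53 to 16.5 RPM. The groups overlapped, and the log2 difference of 0.0087 ± 0.20 (SE) was not called (edgeR adjusted p = 0.979; 0.861 and 0.841 at promoters 2 and 3). In the cortex, all 9 replicate numbers therefore had the 3 marks together at these starts, and in the gastrocnemius H3K27me3 stood beside H3K4me3 under 9, 3 and 8 of 10 numbers at promoters 1, 2 and 3 and beside H3K27ac under 0.

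**Figure D1:**
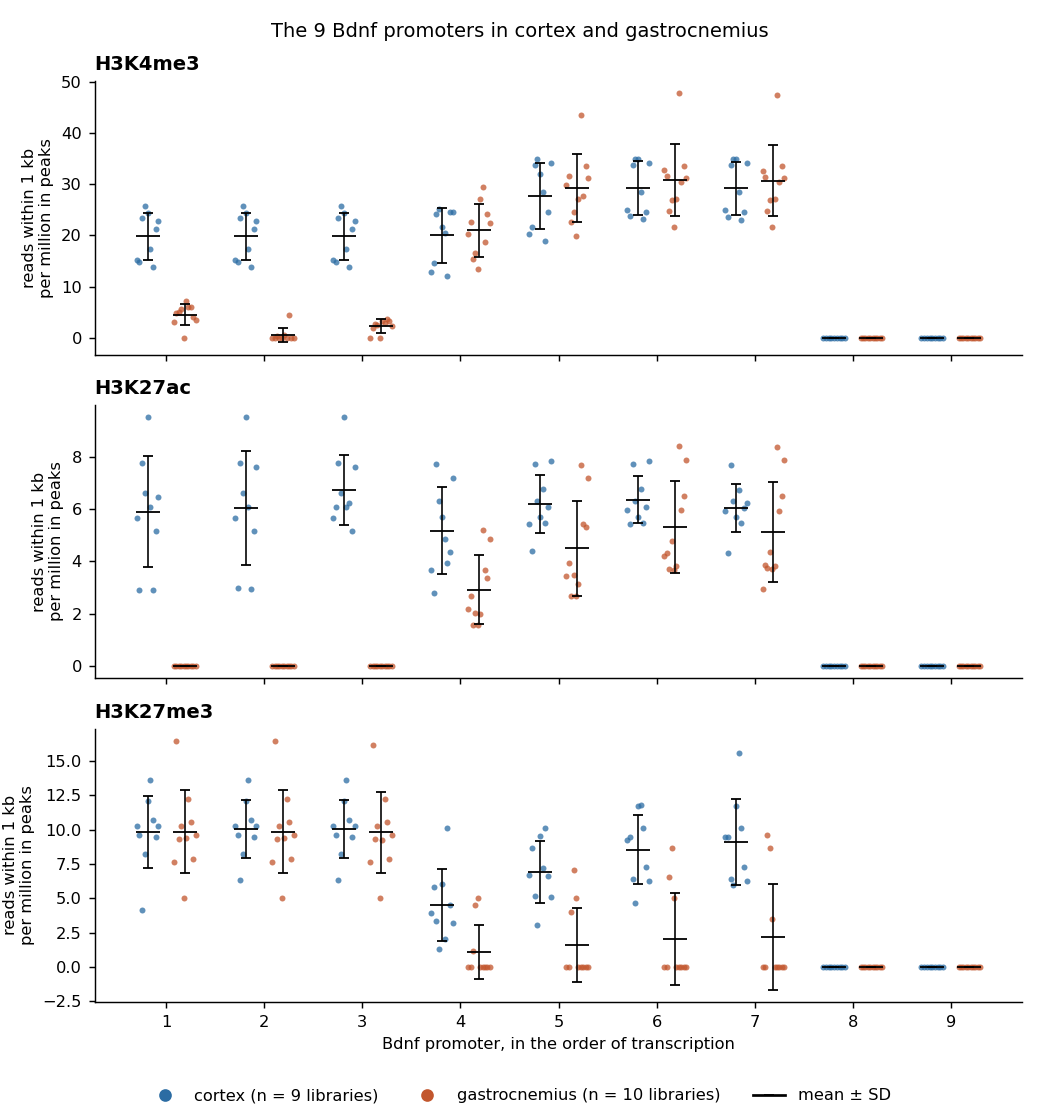
RPM of the 3 marks (reads of peaks) within 1 kb of each Bdnf promoter. Points are libraries and bars the mean ± SD (9 cortex, 10 gastrocnemius). At promoters 1 to 3 the cortex libraries lie above all gastrocnemius libraries for H3K4me3 and H3K27ac and among them for H3K27me3, while at promoters 4 to 7 the H3K4me3 points of the tissues overlap and promoters 8 and 9 have no peak.

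Bdnf promoters 4 to 7 lie under 1 H3K4me3 peak in each tissue, with a median width of 3.4 kb in the cortex and 3.5 kb in the gastrocnemius. At promoter 6, the start with the most H3K4me3, the cortex libraries ran from 23.1 over 28.5 to 35.0 RPM and the gastrocnemius libraries from 21.7 over 30.8 to 47.7 RPM. The means of 29.2 ± 5.23 and 30.8 ± 7.04 RPM gave a log2 difference of -0.076 ± 0.13 (SE), which was not called (edgeR adjusted p = 0.599). None of promoters 4 to 7 was called (adjusted p from 0.599 to 0.715). Relative to the other promoters this group was lower in the cortex: with TMM factors the log2 difference was -0.36 at each of the 4 starts (adjusted p = 0.0743, 0.0255, 0.0102 and 0.0106).

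H3K27ac was called at promoters 4 to 7 in all 9 cortex and all 10 gastrocnemius libraries. At promoter 4 the cortex libraries ran from 2.80 over 4.85 to 7.74 RPM and the gastrocnemius libraries from 1.56 over 2.43 to 5.19 RPM. The tissues overlapped, and the log2 difference of 0.82 ± 0.26 (SE) was called higher in the cortex (edgeR adjusted p = 0.0126). One H3K27ac peak ran over promoters 4 to 7. It covered 1036 to 2001 bp of the promoter 4 window in the cortex and 836 to 1236 bp in the gastrocnemius. At promoter 6 it covered 2001 bp and 1963 to 2001 bp. The difference at promoter 4 thus holds the position of the peak edge as well as the level of the mark, and these were not separated. At promoter 5 the difference of 0.46 ± 0.20 was called (adjusted p = 0.0579) and lost with TMM factors (0.23, adjusted p = 0.283) and with the libraries without a run number (adjusted p = 0.122). Promoters 6 and 7 were not called (0.25 ± 0.16 and 0.24 ± 0.19, adjusted p = 0.197 and 0.278). Promoter 6 was called higher in the cortex with whole peaks (0.58, adjusted p = 0.0335), with a 2.5 kb window (0.52, adjusted p = 0.0413), with the label number as a block (0.38, adjusted p = 0.0906) and, with no block, without gastrocnemius replicate 7 or 10 (adjusted p = 0.0609 and 0.0836). The study names BDNF among the genes whose promoter H3K27ac differed between the sexes in the gastrocnemius. The labels give no sex for a library, so the spread within a tissue includes any difference between the sexes, which was not tested.

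H3K27me3 at promoters 4 to 7 was called in all 9 cortex libraries and in 3 of 10 gastrocnemius libraries, the replicates 3, 4 and 5. At promoter 6 the cortex libraries ran from 4.68 over 9.26 to 11.8 RPM, the 3 gastrocnemius libraries with a peak had 6.57, 8.69 and 5.04 RPM, and 7 had no peak. The number of libraries with a peak differed (Fisher's exact test, adjusted p = 0.0140 at each of the 4 starts), and these were the 4 of 14 member TSSs with H3K27me3 called more often in the cortex. None was called more often in the gastrocnemius. Of all TSSs, 15.1% and 20% were. The reads gave a log2 difference of 2.08 ± 1.04 (SE) at promoter 6 that was not called (edgeR adjusted p = 0.125, and 0.127 to 0.164 at the other 3). With uncalled libraries set at the lowest peak density in place of 0 it was 0.67 and called (adjusted p = 0.00806). It was 6.65 with the animal as a replicate block and 5.36 with the label number as a block (adjusted p = 0.0148 and 0.0221). With the animal block all 4 starts were called (adjusted p from 0.0141 to 0.0269), and 7 member TSSs in all were called higher in the cortex, against 5 for the same libraries without the block and 3 for all libraries (21.4%, 20.2% and 19.4% of all TSSs). Without gastrocnemius replicate 4, the shallowest, the count was 7, and without replicate 3 it was 5 (20.2% and 18.9% of all TSSs).

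The groups of Bdnf promoters can be compared within a library, which does not depend on its scaling. This test was added after the differences at the single promoters were seen, so its p-value restates them and is not separate support. Of the H3K4me3 reads at promoters 1 to 7, the share at promoters 1 to 3 ran from 43.5 over 46.7 to 48.5% in the cortex and from 0 over 11.4 to 18.0% in the gastrocnemius. The 0% is that of gastrocnemius replicate 5, which had no H3K4me3 peak called at promoters 1 to 3. The groups did not overlap, and the means differed by 35.2 percentage points (46.7 ± 1.59 and 11.5 ± 5.53%, two-sided exact permutation test, p = 1.1e-05, the smallest it can give, adjusted over 3 marks p = 1.6e-05). For H3K27ac the share was 54.6 ± 4.30% in the cortex and 0% in all 10 gastrocnemius libraries, none of which had a peak there. The H3K27me3 share lay between 53.5 and 71.2% in cortex libraries. The 3 gastrocnemius libraries with a peak at promoters 4 to 7 had 65.4, 63.0 and 56.3%, within the cortex range, and the other 7 are listed at 100% because no peak was called there. For these marks the shares restate the peak calls, so no test is given.

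Bdnf promoters 8 and 9 had no peak of any mark within 1 kb in any of the 57 libraries. Promoter 8 lies in a CpG-poor stretch, as its sequence above shows, with 13 CpG within 1 kb, while promoter 9 has 46. Across the whole locus, taken as the gene with 5 kb on either side (62.3 kb), peaks covered 15.3 ± 1.11% in the cortex and 9.75 ± 1.91% in the gastrocnemius for H3K4me3, and 16.0 ± 3.35% and 5.72 ± 1.97% for H3K27ac (exact permutation test, adjusted p = 2.5e-05 for both). For H3K27me3 the coverage of 29.5 ± 14.9% and 22.3 ± 10.7% did not differ beyond the spread (adjusted p = 0.282). The map of called peaks shows the peaks of each mark along the locus.

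**Figure D2:**
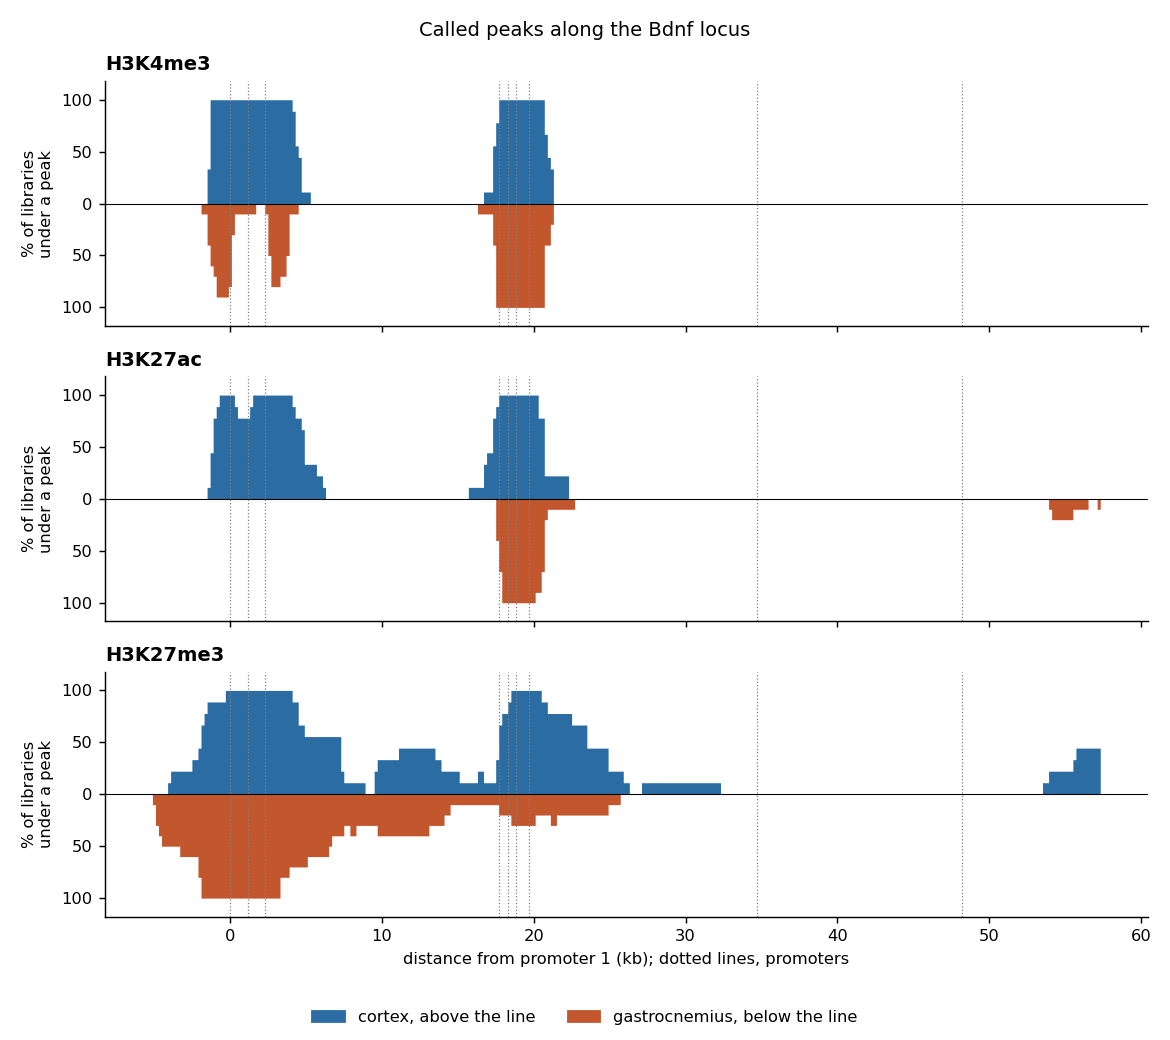
Share of libraries with a called peak along the Bdnf locus in steps of 200 bp, cortex upward and gastrocnemius downward, in percent, against the distance from promoter 1 in kb. Dotted lines are the 9 promoters. H3K27ac at the first promoter group appears in the cortex alone, and no peak of any mark overlies promoters 8 and 9.

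The other ligand genes carried more of the active marks in the gastrocnemius. Ntf3 lies on chromosome 6, reverse strand, with starts at 126166744 (promoter 1) and 126164960 (promoter 2). The 250 bases upstream of promoter 2 (chr6:126164961-126165210, read on the reverse strand) are shown because this start carried all 3 marks in every library of both tissues.
Ntf3 promoter 2: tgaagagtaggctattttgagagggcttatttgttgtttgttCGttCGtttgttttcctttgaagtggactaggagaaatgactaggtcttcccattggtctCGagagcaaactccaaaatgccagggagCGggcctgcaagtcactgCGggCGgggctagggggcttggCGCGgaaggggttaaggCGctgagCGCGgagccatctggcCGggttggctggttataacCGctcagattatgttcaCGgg

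At Ntf3 promoter 1, H3K4me3 was called in 1 of 9 cortex libraries, replicate 2 at 0.882 RPM, and in 10 of 10 gastrocnemius libraries, from 19.9 over 24.3 to 29.5 RPM. At promoter 2 the cortex libraries ran from 3.06 over 4.57 to 6.87 RPM and the gastrocnemius libraries from 19.9 over 24.3 to 29.5 RPM. The tissues did not overlap at either start, and the log2 difference at promoter 2 was -2.26 ± 0.14 (SE, edgeR adjusted p = 1.0e-11). In the gastrocnemius 1 H3K4me3 peak of median width 8.9 kb ran over both starts, and in the cortex the peak at promoter 2 was 3.2 kb wide.

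H3K27ac at Ntf3 promoter 1 was called in 0 of 9 cortex and 10 of 10 gastrocnemius libraries, where it ran from 6.41 over 7.24 to 12.3 RPM (Fisher's exact test, adjusted p = 0.000169). At promoter 2 the cortex had 2.20 ± 0.806 and the gastrocnemius 8.03 ± 1.79 RPM, a log2 difference of -1.83 ± 0.19 (SE, edgeR adjusted p = 4.3e-08). H3K27me3 was called at both starts in every library of both tissues. At promoter 2 the cortex libraries ran from 8.98 over 13.1 to 16.0 RPM and the gastrocnemius libraries from 4.13 over 8.55 to 13.1 RPM. They overlapped, and the difference was called higher in the cortex at both starts (0.48 ± 0.17 and 0.54 ± 0.20, edgeR adjusted p = 0.0304 and 0.0319). The call was lost with the libraries without a run number (adjusted p = 0.380 and 0.435). Over the locus of 75.3 kb, H3K27ac peaks covered 7.02 ± 3.17% in the cortex and 62.0 ± 7.11% in the gastrocnemius, and H3K27me3 peaks 71.3 ± 9.93% and 46.2 ± 16.2% (exact permutation test, adjusted p = 2.5e-05 and 0.00185). Of the 200 bp bins of this locus with H3K27ac in any library, 28.4% lay under a peak in every gastrocnemius library and no cortex library, 19 kb in 8 stretches, against 3.62% of the autosomal bins with the mark in any library.

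Ntf5, which encodes the ligand also called neurotrophin-4, has 1 start on chromosome 7, forward strand, at 45413695. H3K4me3 ran from 0 over 4.46 to 5.28 RPM in the cortex, with a peak in 8 of 9 libraries, and from 12.3 over 18.2 to 21.3 RPM in the gastrocnemius. H3K27ac ran from 0 over 3.18 to 4.49 RPM and from 7.77 over 9.64 to 12.9 RPM. The tissues did not overlap for either mark, with log2 differences of -2.18 ± 0.32 and -1.59 ± 0.21 (SE, edgeR adjusted p = 5.9e-06 and 2.2e-06). H3K27me3 went the other way. All 9 cortex libraries had a peak, from 11.7 over 13.8 to 16.1 RPM, and 6 of 10 gastrocnemius libraries, from 0 over 4.21 to 10 RPM. The lowest cortex library was above the highest gastrocnemius library, and the log2 difference of 1.78 ± 0.56 (SE) was called (edgeR adjusted p = 0.0157).

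The gastrocnemius peaks at Ntf5 were wide and not its own alone. The median H3K4me3 peak was 12.7 kb wide and ran from 45403301 to 45415900, over the start of Kcna7, a potassium channel gene 7735 bp upstream. The median H3K27ac peak was 24.9 kb wide. In the cortex these peaks were 1.5 and 1.4 kb wide. Because the reads of a peak were shared evenly over it, the gastrocnemius values of Ntf5 under such wide peaks hold reads of the Kcna7 domain, and the parts cannot be told apart. Gastrocnemius replicate 10 had an H3K4me3 peak wholly within 1 kb of the Ntf5 start, and its 12.3 RPM lay above every cortex library. Cortex H3K27me3 peaks, with a median width of 18.8 kb, also ran over Kcna7 and over Lhb, 7251 bp downstream. H3K27me3 peaks covered 99.0 ± 2.08% of the Ntf5 locus in the cortex and 38.3 ± 38.5% in the gastrocnemius, and H3K27ac peaks 31.9 ± 18.1% and 96.4 ± 5.10% (exact permutation test, adjusted p = 0.000485 and 2.5e-05).

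**Figure D3:**
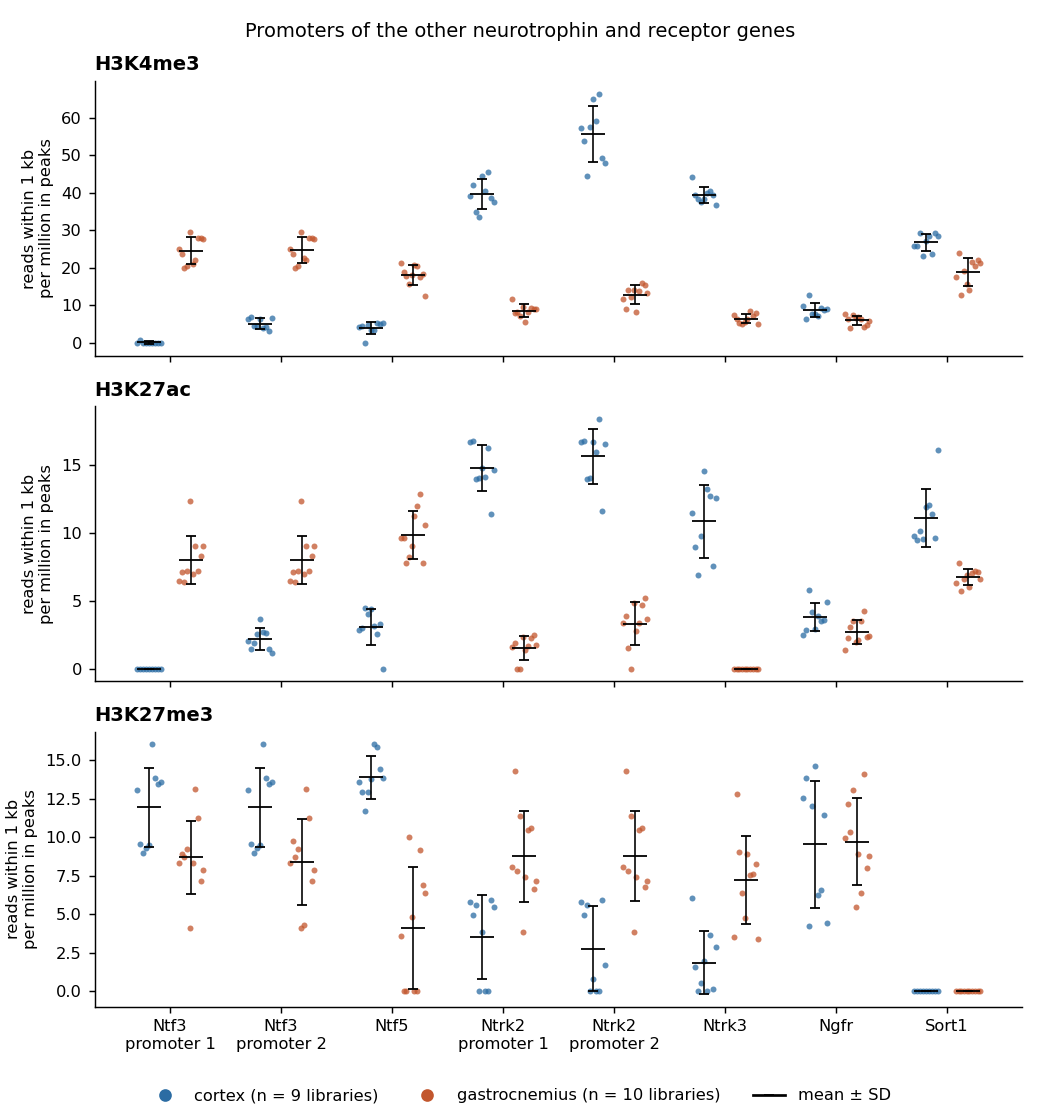
RPM of the 3 marks (reads of peaks) within 1 kb of the promoters of Ntf3, Ntf5, Ntrk2, Ntrk3, Ngfr and Sort1. Points are libraries and bars the mean ± SD (9 cortex, 10 gastrocnemius). The ligands Ntf3 and Ntf5 are higher in the gastrocnemius and the receptors Ntrk2 and Ntrk3 in the cortex for H3K4me3 and H3K27ac, with no overlap between the tissues.

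Both Trk receptor genes had more of the active marks in the cortex. Ntrk2 lies on chromosome 13, forward strand, with starts at 58806569 and 58807697, and Ntrk3 on chromosome 7, reverse strand, with 1 start at 78577838. These starts were CpG-rich, with 96 and 131 CpG within 1 kb of the Ntrk2 starts and 140 at Ntrk3, against the median of 55 over all TSSs.

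At Ntrk2 promoter 2, H3K4me3 ran from 44.5 over 57.2 to 66.4 RPM in the cortex and from 8.22 over 13.6 to 15.9 RPM in the gastrocnemius. At Ntrk3 it ran from 36.7 over 39.3 to 44.2 RPM and from 5.06 over 6.30 to 8.58 RPM. The log2 differences were 2.12 ± 0.12 and 2.61 ± 0.10 (SE, edgeR adjusted p = 1.6e-12 and 6.2e-15), without overlap between the tissues. Ntrk2 promoter 1 had 39.5 ± 4.01 and 8.58 ± 1.63 RPM. The H3K4me3 peaks were also wider in the cortex, with medians of 8 against 3.8 kb at Ntrk2 and 7.2 against 3.1 kb at Ntrk3.

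H3K27ac at Ntrk2 promoter 2 ran from 11.6 over 16.6 to 18.4 RPM in the cortex and from 0 over 3.53 to 5.20 RPM in the gastrocnemius, with a peak in 9 of 10 libraries (log2 difference 2.23 ± 0.31 SE, edgeR adjusted p = 5.0e-06). At Ntrk3 it ran from 6.94 over 11.5 to 14.6 RPM in the cortex, and none of the 10 gastrocnemius libraries had a peak (Fisher's exact test, adjusted p = 0.000169). H3K27me3 was called at Ntrk3 in 7 of 9 cortex libraries, from 0 over 1.54 to 6.03 RPM, and in 10 of 10 gastrocnemius libraries, from 3.40 over 7.57 to 12.8 RPM. The tissues overlapped, and the log2 difference of -1.96 ± 0.72 (SE) was called (edgeR adjusted p = 0.0337). With the libraries without a run number it was -1.99 and not called (adjusted p = 0.117). At Ntrk2 promoter 2 the cortex libraries ran from 0 over 1.68 to 5.94 RPM, with a peak in 6 of 9, and the gastrocnemius libraries from 3.82 over 7.94 to 14.3 RPM. The difference of -1.64 ± 0.71 was called (adjusted p = 0.0741), but not at promoter 1 (-1.30 ± 0.67, adjusted p = 0.133), and the call at promoter 2 was lost when cortex replicate 5 or 9 or gastrocnemius replicate 2, 4 or 8 was left out (adjusted p from 0.102 to 0.121), with the libraries without a run number (adjusted p = 0.139) and without the lowest 25% of peak scores (adjusted p = 0.121). In these fits the difference was -1.52 to -2.06.

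Beyond the promoters, the bodies of both receptor genes carried H3K27ac in the cortex, and in the gastrocnemius they carried H3K27me3. In the Ntrk2 locus of 337 kb, H3K27ac peaks covered from 45.1 over 69.6 to 77.8% in the cortex and from 0 over 0.948 to 2.96% in the gastrocnemius. H3K27me3 peaks covered from 0 over 1.48 to 2.37% in the cortex and from 30.5 over 50.1 to 68.1% in the gastrocnemius. The groups did not overlap for either mark (exact permutation test, adjusted p = 2.5e-05 for each). Of the bins with H3K27ac in any library, 33.3% lay under a peak in every cortex library and no gastrocnemius library, 99.8 kb in 39 stretches, against 3.37% of the autosomal bins with the mark in any library. The reverse held for H3K27me3 in 16.4 kb of 11 stretches, 5.54% of the bins against 0.599% on the same base.

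In the Ntrk3 locus of 396 kb the directions were the same. H3K27ac peaks covered 22.3 ± 5.93% in the cortex and 0.0253 ± 0.0799% in the gastrocnemius, and H3K27me3 peaks 1.47 ± 0.602% and 26.6 ± 9.75% (exact permutation test, adjusted p = 2.5e-05 and 4.1e-05). Bins with H3K27ac in every cortex and no gastrocnemius library made up 20.6 kb in 8 stretches, 10.8% of the bins with that mark in any library. Bins with H3K27me3 in every gastrocnemius and no cortex library made up 11.2 kb in 10 stretches, 3.86% of the bins. The shares over the autosomes are the 3.37% and 0.599% given for Ntrk2.

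**Figure D4:**
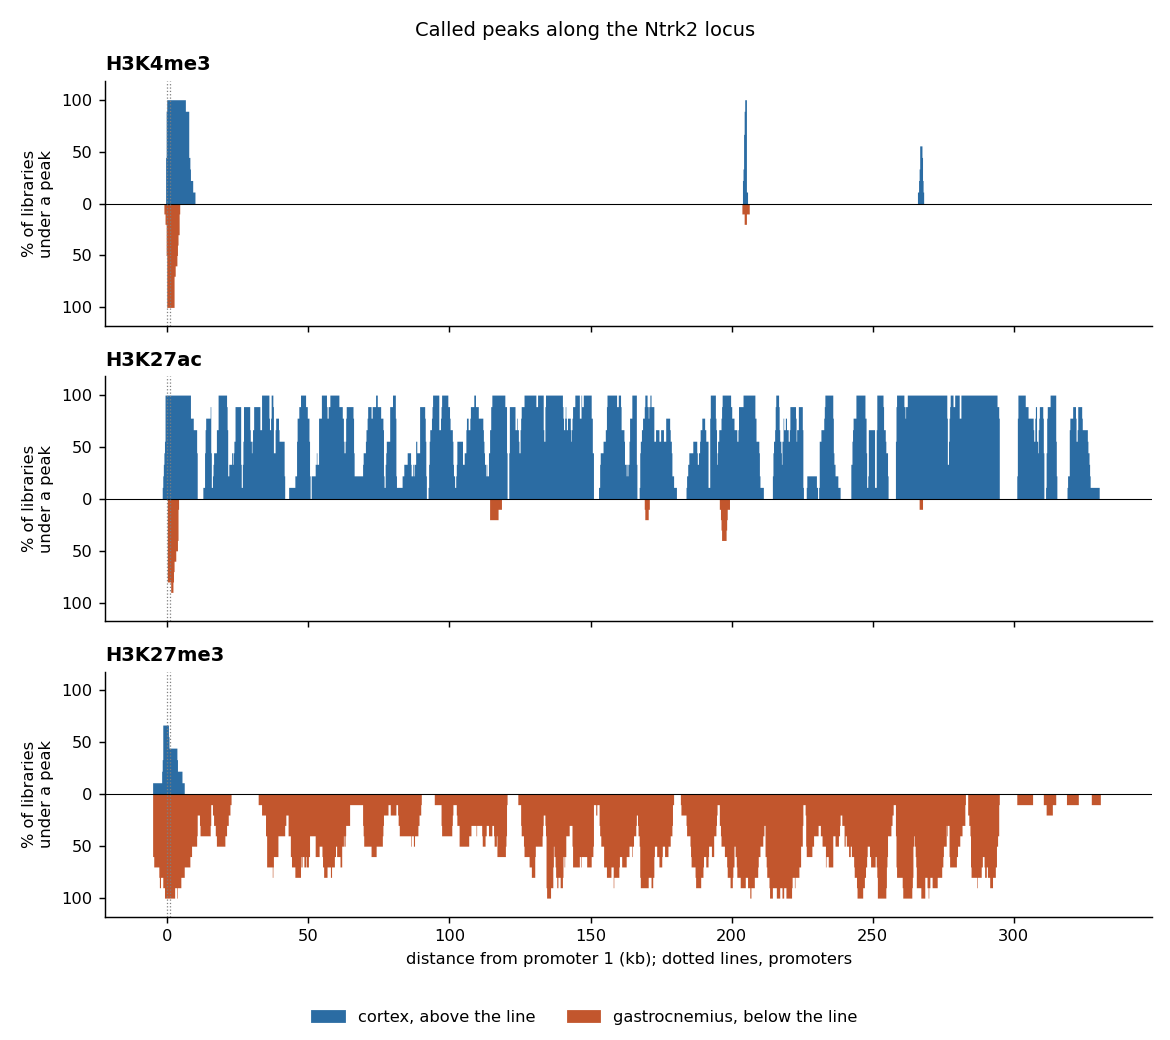
Share of libraries with a called peak along the Ntrk2 locus in steps of 200 bp, cortex upward and gastrocnemius downward, in percent, against the distance from promoter 1 in kb. Dotted lines are the 2 promoters. H3K27ac peaks of the cortex and H3K27me3 peaks of the gastrocnemius spread over the gene body, 66.3% and 48.5% of the locus on average.

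At the starts of the co-receptor genes the differences in the active marks were under 2-fold. Ngfr lies on chromosome 11, reverse strand, with 1 start at 95587698, and had all 3 marks in every library of both tissues. H3K4me3 ran from 6.37 over 8.66 to 12.7 RPM in the cortex and from 4.08 over 6.28 to 7.65 RPM in the gastrocnemius. The tissues overlapped, and the log2 difference of 0.53 ± 0.16 (SE) was called (edgeR adjusted p = 0.00522) but not with TMM factors (0.23, adjusted p = 0.278). H3K27ac was 3.82 ± 1.05 and 2.70 ± 0.874 RPM. Its difference of 0.50 ± 0.23 was called (adjusted p = 0.0702). The call was lost with TMM factors (0.23, adjusted p = 0.402), whole peaks (0.24, adjusted p = 0.254) and the libraries without a run number (0.30, adjusted p = 0.384). It was also lost with DESeq2 (0.21, DESeq2 adjusted p = 0.415). With the animal as a replicate block the difference was 0.49 and not called (adjusted p = 0.234, against 0.109 for the same libraries without the block). The call was lost too when cortex replicate 3 or 4 or gastrocnemius replicate 1, 5 or 6 was left out (0.40 to 0.48). H3K27me3 at the start was 9.55 ± 4.13 and 9.72 ± 2.81 RPM and was not called (adjusted p = 0.988). Over the locus of 28.9 kb the peaks of both active marks covered a larger share in the gastrocnemius. H3K4me3 peaks covered 9.62 ± 1.12% in the cortex and 12.1 ± 1.82% in the gastrocnemius (exact permutation test, adjusted p = 0.00262), and H3K27ac peaks 17.5 ± 8.75% and 43.3 ± 12.6% (exact permutation test, adjusted p = 9.7e-05). The reads in the H3K4me3 peaks of the locus had medians of 20.5 RPM in the cortex and 15.0 RPM in the gastrocnemius, the direction seen at the start, and those in the H3K27ac peaks 13.7 and 22.5 RPM (not tested). H3K27me3 covered 85.0 ± 6.45% and 80.3 ± 16.2%, which did not differ beyond the spread (adjusted p = 0.589).

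Sort1 lies on chromosome 3, forward strand, with 1 start at 108284064. It was the member with active marks and no H3K27me3 peak at its start in any library. H3K4me3 ran from 23.2 over 27.1 to 29.2 RPM in the cortex and from 12.8 over 19.7 to 23.8 RPM in the gastrocnemius. The tissues overlapped narrowly, and the log2 difference of 0.51 ± 0.11 (SE, edgeR adjusted p = 0.000266) was 0.23 with TMM factors (adjusted p = 0.0255). H3K27ac ran from 9.47 over 10.1 to 16.1 RPM and from 5.77 over 6.78 to 7.80 RPM, without overlap, a log2 difference of 0.70 ± 0.09 (SE, adjusted p = 2.6e-06). The highest value was that of the shallowest library, cortex replicate 9. H3K27ac peaks covered 92.9 ± 3.33% of the Sort1 locus of 87.5 kb in the cortex and 64.1 ± 10.5% in the gastrocnemius (exact permutation test, adjusted p = 5.7e-05), and 34.2 kb lay under a peak in every library of both tissues.

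**Figure D5:**
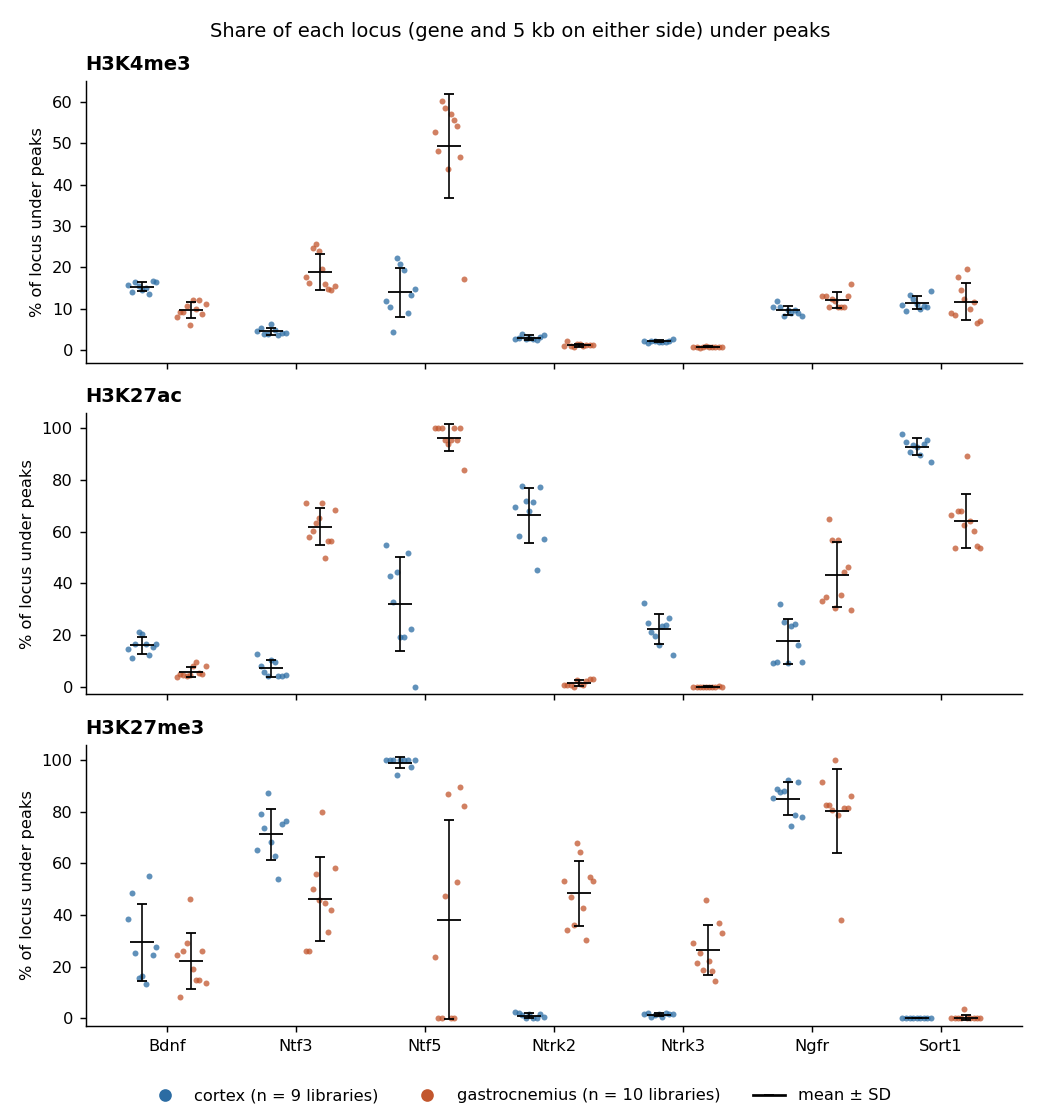
Percent of each locus (the gene with 5 kb on either side) under called peaks of the 3 marks. Points are libraries and bars the mean ± SD (9 cortex, 10 gastrocnemius). H3K27ac covers more of Ntrk2 and Ntrk3 in the cortex and H3K27me3 more of them in the gastrocnemius, Ntf3 and Ntf5 the reverse in part, and Sort1 has next to no H3K27me3.

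H3K4me3 and H3K27me3 were called together at many of these promoters. Of the member TSSs with H3K4me3 in every library of a tissue, 9 of 13 in the cortex and 6 of 12 in the gastrocnemius also had H3K27me3 in every library. Over all autosomal TSSs this was 11.8% in each tissue. The 9 of the cortex were Bdnf promoters 1 to 7, Ntf3 promoter 2 and Ngfr, and the 6 of the gastrocnemius were the starts of Ntf3, Ntrk2, Ntrk3 and Ngfr. The counts are a description, and 7 of the 9 are Bdnf promoters that share peaks.

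By their levels at the start with the most H3K4me3, the members ordered differently in the tissues. In the cortex the H3K4me3 means ran from Ntrk2 (55.6 RPM) over Ntrk3 (39.3), Bdnf promoter 6 (29.2), Sort1 (26.8), Ngfr (8.69) and Ntf3 (5.13) to Ntf5 (3.97 RPM). In the gastrocnemius they ran from Bdnf promoter 6 (30.8 RPM) over Ntf3 (24.7), Sort1 (18.8), Ntf5 (18.1), Ntrk2 (12.8) and Ntrk3 (6.44) to Ngfr (6.02 RPM). Neighbours within 1 SD of each other were Bdnf and Sort1, and Ntf3 and Ntf5, in the cortex, and Bdnf and Ntf3, Sort1 and Ntf5, and Ntrk3 and Ngfr in the gastrocnemius. All windows have the same length.

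The genes whose mean levels of the 3 marks in both tissues lay nearest were Foxp2 and Slc9a3r1 for Bdnf, Rassf10 and Themis2 for Ntf3, 1700123J17Rik and Pvalb for Ntf5, Zfyve28 and Sowaha for Ntrk2, Nmnat2 and Syt14 for Ntrk3, Chrdl2 and Mesp1 for Ngfr, and Dnmt3a and Elob for Sort1. The measure was the Euclidean distance over the 6 means of log2(RPM + 1) at the start of each gene with the most H3K4me3. For Bdnf this is promoter 6, so promoters 1 to 3 do not enter. The genes named lay at 0.169 (Dnmt3a) to 0.835 (Pvalb), against median distances of 4.06 to 6.20 over all genes.

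The wider pathway was described by 29 genes that process the ligands, are related to sortilin, pass on the Trk or p75 signal, or regulate Bdnf transcription, each at its start with the most H3K4me3. For H3K4me3, 22 of 29 were called higher in the cortex and 1 in the gastrocnemius, with a median log2 difference of 0.53, against 60.1% and 15.7% of all genes and a median of 0.34. For H3K27ac the counts were 18 and 1 of 29, with a median of 0.33 (all genes, 50.3%, 12.6% and 0.31). The genes with the largest H3K4me3 differences were Npas4, a neuronal activity factor, with 25.9 ± 2.71 RPM in the cortex and a peak in 1 of 10 gastrocnemius libraries, and Sorcs3, a sortilin relative, with 34.2 ± 1.99 RPM in the cortex and likewise a peak in 1 gastrocnemius library. Both had no H3K27ac peak in any gastrocnemius library and 9.28 ± 0.803 and 10.5 ± 0.942 RPM in the cortex. Gab1, an adaptor of receptor kinases, was the gene with more H3K4me3 in the gastrocnemius (45.5 ± 6.55 and 67.6 ± 11.7 RPM, log2 difference -0.57 ± 0.11 SE, edgeR adjusted p = 0.000168). Sh2b1, another adaptor, was the gene with more H3K27ac there (8.74 ± 2.10 and 12.4 ± 2.02 RPM, log2 difference -0.53 ± 0.13 SE, adjusted p = 0.00186).

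For H3K27me3, 13 of the 29 genes had enough peaks to be tested, 1 was called higher in the cortex and 5 in the gastrocnemius, against 19.5% and 25.3% of all genes. Their median log2 difference was -1.36, and that of all genes 0.005. Sorcs1, another sortilin relative, and Plat, which makes tissue plasminogen activator, had a peak in 10 of 10 gastrocnemius libraries and 0 of 9 cortex libraries, with 7.02 ± 2.35 and 6.94 ± 2.26 RPM in the gastrocnemius. Gab1 was the gene called in the cortex direction, with a peak in 3 of 9 cortex libraries and 0 of 10 gastrocnemius libraries.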

How the data were processed

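H3K4me3, H3K27ac and H3K27me3 ChIP-seq libraries of cortex and gastrocnemius were analysed from the peak lists of the authors, 1 list per library. Per the labels and the study's methods, the authors aligned reads with BWA to mm10, filtered them with SAMtools and called peaks with epic2 (FDR 0.05, gap 2, or 3 for H3K27me3). The versions of SAMtools and epic2 are not given in the sources used here. The deposited lists hold for each peak its position, the count of ChIP reads in it and a score. Reads outside peaks are not in these lists, so an uncalled promoter has no value.

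The read count of each peak was spread evenly over its length, the part within 1 kb of a RefSeq TSS (GRCm38.p6) was summed and rounded, and reads in autosomal peaks were taken as library size. TSSs with a peak in at least 3 libraries of a tissue were tested with edgeR's quasi-likelihood test (Benjamini-Hochberg FDR under 0.1), with tissue as the only term. The number of libraries with a peak was tested with Fisher's exact test, and the percent of each locus under peaks with a two-sided exact permutation test over all 92378 relabellings (smallest p 1.1e-05), adjusted over 7 genes and 3 marks. The score was used only to leave out the lowest 25% of peaks as an alternative. The edgeR and Fisher tests were run on all TSSs, the locus and Bdnf share tests on the members alone, and the edgeR fit was tested on simulated data, where it called 84, 75 and 13 of 100 2-fold changes and 96, 88 and 41 of 100 4-fold changes for H3K4me3, H3K27ac and H3K27me3. The members, the pathway list and the marker lists were chosen with earlier results of these data known, and the test of Bdnf read shares after the data were seen. The result of 1 marker list is not reported here. The named genes were all members, the 2 called pathway genes with the largest difference for each mark and direction, and the 2 genes nearest to each member.

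The same animals gave both tissues, by the animal number in the deposited names, for 9 of 10 animals. Deviations of paired libraries from their tissue means had correlations from -0.074 to 0.065 by animal number and from -0.13 to 0.065 by label number. For any mark, 0 of 9 pairs were above 0.1. The fit with the animal as a block was run as an alternative, beside other scalings, DESeq2, windows, filters and leaving out each library. Libraries of a group are different animals. Read counts cover counting error only. Versions were Python 3.11.15, NumPy 2.4.6, SciPy 1.17.1, matplotlib 3.10.9, R 4.3.3, edgeR 4.0.16, limma 3.58.1 and DESeq2 1.42.0.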

Additional observations from a re-analysis of the deposited data

Results flagged for a closer look

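Of 39 groups of libraries tested at the leading TSSs, 6 held 1 library that stood apart from the others by Dixon's test. Chance gives about 1 in 20 groups. At Bdnf promoter 6, gastrocnemius replicate 7 had 47.7 RPM of H3K4me3, and the nearest library 33.6 RPM. At Ntrk3, cortex replicate 1 had 44.2 RPM of H3K4me3, and the nearest 40.3 RPM. At Ntf5, cortex replicate 3 had no H3K4me3 peak and is listed at 0 RPM, with the nearest library at 3.47 RPM. At Ntf3 promoter 2, gastrocnemius replicate 5 had 12.3 RPM of H3K27ac, and the nearest 9.06 RPM. H3K27ac cortex replicate 9 stood apart at both Ntf5, where it has no peak and is listed at 0 RPM with the nearest library at 2.56 RPM, and Sort1, where it had 16.1 RPM and the nearest 12 RPM. It is the shallowest library of that mark, with 3.94 M reads in peaks.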

How the results depend on the processing

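The H3K4me3 and H3K27ac differences of Ntf3, Ntf5, Ntrk2 and Ntrk3 at their leading TSSs and the H3K27ac difference of Sort1 kept direction and call in every alternative run. Counts of member TSSs moved by over 1.5 times as follows, and the causes were not tested. For H3K4me3, the count higher in the gastrocnemius was 7 in place of 3 with TMM factors and with DESeq2 (27.8% and 30.7% of all TSSs in place of 16.9%), and the count called more often in one tissue was 4 in place of 2 without the lowest 25% of scores, 0 with a 2.5 kb window and 1 with the libraries without a run number (12.1%, 9.29% and 8.38% of all TSSs in place of 9.49%). For H3K27me3, the count higher in the cortex was 6 in place of 3 with a 500 bp window and with uncalled libraries set at the lowest peak density (20.3% and 14.2% of all TSSs in place of 19.4%). It was 1 with the libraries without a run number (all TSSs, 1607 of 9076). With 1 library left out it was 3 to 7 (all TSSs, 1748 to 2137 of 9970 to 10180). With the replicate block, by animal or by label number, the count was 7, against 5 and 3 for the same libraries without the block, since each block leaves out 1 gastrocnemius library, replicate 5 or 10. Over all TSSs these were 2135 and 2208 with the blocks, against 2012 and 1929 without, of 9970 and 10081. The count higher in the gastrocnemius was 1 in place of 2 without the lowest scores (all TSSs, 2484 of 9348 in place of 2692 of 10235). It was 0 with the libraries without a run number (2211 of 9076) and 1 to 2 with 1 library left out (2510 to 2700 of 9970 to 10180).

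No log2 difference was called in a setting that changed its sign. Bdnf promoter 6 gave 0.015 for H3K4me3 without gastrocnemius replicate 7 (range -0.12 to 0.015 with 1 library left out) and -0.013 for H3K27ac with DESeq2. Ngfr H3K27me3 gave -0.014 with TMM factors, -0.071 with X in the total, -0.082 with DESeq2, -0.094 and -0.036 with windows of 500 bp and 2.5 kb, -0.15 and -0.093 with the replicate block by animal and by label number, -0.12 with the libraries without a run number, and -0.092 to 0.11 with 1 library left out. The H3K4me3 share of the Sort1 locus differed by 0.396 percentage points over the gene body alone and by -0.864 to 0.584 with 1 library left out. For Ntf5 H3K4me3 the locus share was no longer called over the gene body alone (a difference of -11.5 percentage points, exact permutation test, adjusted p = 0.318). The fit with the animal block differed in no call of a member TSS from that on all libraries other than Bdnf promoters 4 to 7 for H3K27me3 and Ngfr for H3K27ac, and the Ngfr call was also lost without replicate 5 alone. With the label number block the Ngfr difference was 0.52 and its call was lost as well (adjusted p = 0.209), though not for the same libraries without the block. Bdnf promoter 6 was called for H3K27ac with that block, as it was without replicate 10 alone. At H3K27me3 few 2-fold changes were recovered in simulated data, so a missing call there carries little weight.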
